A study of Homo sapiens with 6 samples.

Results

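Transcripts of TGFB1, TGFBR1, TWIST1 and S100A4 were measured in Panc-1, an established line of human pancreatic carcinoma cells, as 4 of the 89 genes of a cancer-focused PCR array. They were taken by name as the transforming growth factor-β (TGF-β) ligand and receptor on the array together with a pair of genes linked to the mesenchymal state; the rule used no measured value, but it was set with earlier results of these data known. The array covered 3 conditions with 2 plates each. Tet-on driver cells carried only the doxycycline-controlled transactivator and were grown with doxycycline (driver cells). Tet-on CaSm cells carried the same transactivator plus an inducible copy of full-length human CaSm (LSm1), a component of the cytoplasmic mRNA decay machinery, and were grown without doxycycline (non-induced cells) or with it (induced cells). Doxycycline was used at 1 μg/ml and the cells were grown for 4 weeks. According to the methods, both lines were stably selected pools, the CaSm pool was made from a subset of the driver pool, and it alone was also selected with puromycin. Non-induced and driver cells therefore differed in construct, selection and doxycycline at once, which cannot be told apart. Induced and driver cells differed in construct and selection as well as in CaSm induction. Induced and non-induced cells differed in doxycycline itself as well as in CaSm induction. In these comparisons, too, an effect of CaSm cannot be told apart from the others. The plates are numbered by a mark in their titles, which is taken here as the run although the labels do not explain it, with replicates 2 and 3 for driver cells and replicates 1 and 2 for both tet-on CaSm conditions. Nothing in the labels says that same-condition plates were grown as separate cultures, so all p-values measure a spread between plates that may be technical.

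TGF-β1 is secreted in a latent form and released outside the cell, where integrins, thrombospondin and proteases help to free it. The active ligand binds the type II receptor, which recruits and phosphorylates the type I receptor encoded by TGFBR1, and the type I receptor then phosphorylates SMAD proteins that enter the nucleus with SMAD4. In epithelial cells this pathway restrains the cell cycle and can also drive epithelial-to-mesenchymal transition (EMT), the loss of epithelial contacts and gain of motility. TWIST1 is a basic helix-loop-helix transcription factor that represses E-cadherin during EMT, and S100A4 (also called FSP1) is a calcium-binding protein widely used as a marker of mesenchymal and motile cells. Panc-1 cells are known to have a functional SMAD4 gene and to respond to TGF-β.

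Each value is a threshold cycle (Ct), the PCR cycle at which the signal of a gene crossed a set level, so that a Ct 1 cycle earlier stands for about 1 log2 unit more template. The ΔCt of a gene is its Ct less that of the normalizing genes (B2M, HPRT1 and GAPDH, averaged within each plate), and a lower ΔCt means higher expression. That mean lay between 20.09 and 20.34 on all plates except induced replicate 1, where it was earlier at 19.73. Ct values above 35 were set to 35. On the array 79 of the 89 genes crossed the threshold before that limit on every plate, including TGFB1, TGFBR1 and S100A4 but not TWIST1. Levels of different genes were not compared, because Ct depends on the primers of each assay. The RNA came from whole cultures, in which less RNA per cell and fewer expressing cells cannot be told apart.

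**Figure D1:**
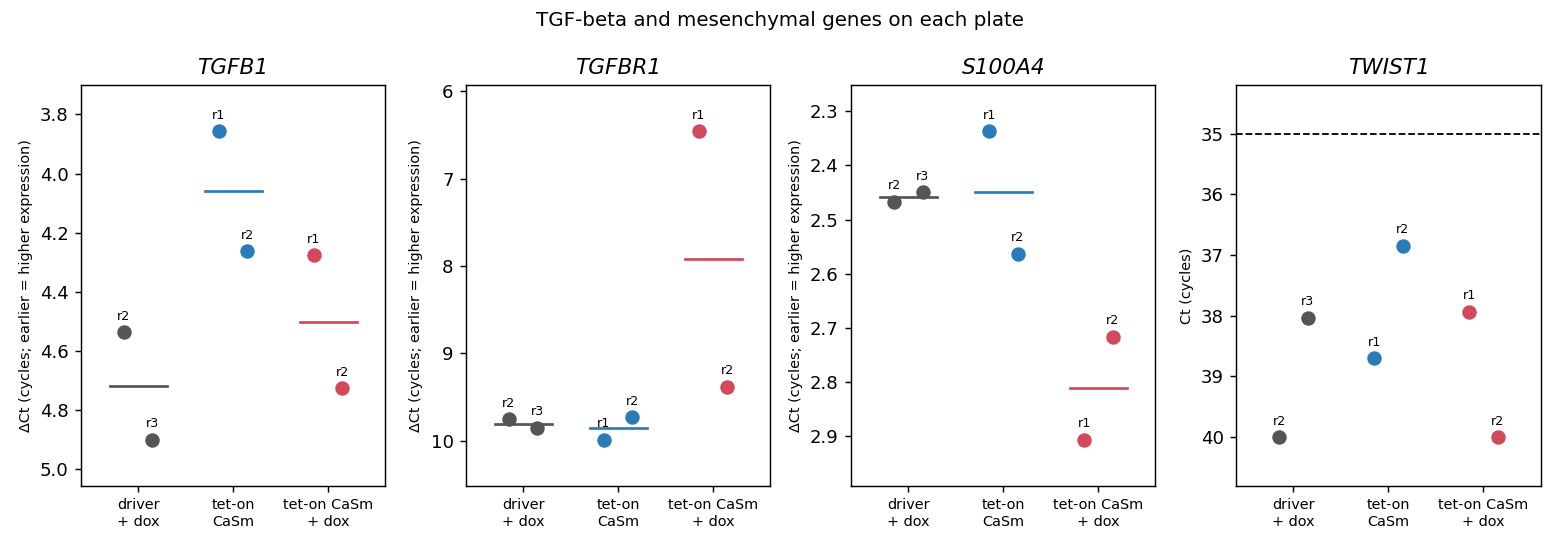
Expression of each gene on each plate, with the condition on the x axis and ΔCt in cycles (Ct in cycles for TWIST1) on an inverted y axis, so that higher points mean higher expression. Points are plates labelled by replicate (r1 to r3), horizontal lines are means of 2 plates, and the dashed line marks a Ct of 35. Induced replicate 1 stands apart for TGFBR1 at 6.46, and every TWIST1 point lies later than 35.

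TGFB1, which encodes the ligand, was readily detected in every condition and differed by less than the test could separate. Its ΔCt was 4.54 and 4.90 in driver cells, 3.86 and 4.26 in non-induced cells, and 4.28 and 4.73 in induced cells. Non-induced cells had the highest expression (4.06 ± 0.29, SD, n = 2 plates), induced cells were intermediate (4.50 ± 0.32, SD, n = 2) and driver cells were lowest (4.72 ± 0.26, SD, n = 2). The induced plates overlapped the driver plates, with one induced plate between them and the other above both. They did not overlap the non-induced plates, which was also the case for 61.4% of all 83 genes tested in that comparison, but the nearest 2 plates (4.26 and 4.28) were almost level.

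With the 3 normalizing genes and all plates, the largest difference in TGFB1 between conditions lay between the 2 controls, neither of which had induced CaSm. TGFB1 was 1.58-fold higher in non-induced than in driver cells (log2 fold change 0.66, with a standard error, SE, of 0.27, 95% interval 0.06 to 1.26). In limma the unadjusted p-value was 0.0349, and Benjamini-Hochberg adjustment over all 85 genes tested gave 0.208. In that comparison 7.06% of all genes tested had an adjusted p-value under 0.05, and for 50.6% the plates did not overlap, as was the case for TGFB1. Genes as a whole ran the same way, with a median log2 fold change of 0.20. That order was not kept in other settings. Within run 2 alone, the only run with both controls, the log2 fold change of TGFB1 was 0.27 between them and −0.46 in induced against non-induced cells. With B2M alone these values were 0.595 and −0.845, and with the median of all genes 0.115 and −0.145.

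Against driver cells, induced cells had a log2 fold change of 0.22 for TGFB1 (SE 0.27, 95% interval −0.39 to 0.82, limma adjusted p = 0.652). The interval allows anything from 1.31-fold lower to 1.76-fold higher expression. The sign depended on the normalizing genes, since the log2 fold change was −0.25 with B2M alone and 0.61 with GAPDH alone. The median of all genes moved in the same way, from −0.08 to −0.55 with B2M and 0.32 with GAPDH, and TGFB1 lay above that median each time. Leaving out induced replicate 1 gave a value of −0.01. Against non-induced cells the log2 fold change was −0.44 (SE 0.27, 95% interval −1.05 to 0.16, limma adjusted p = 0.274), and it was negative with each of the other normalizations tried. These comparisons share the induced plates.

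TGFBR1, which encodes the type I receptor, was earlier in induced cells, but a single well carried most of the difference. Its Ct was 29.85 and 30.08 in driver cells, 30.33 and 29.91 in non-induced cells, 26.19 on induced replicate 1 and 29.57 on induced replicate 2. The corresponding ΔCt was 9.76 and 9.85 in driver cells, 9.99 and 9.73 in non-induced cells, and 6.46 and 9.39 in induced cells. Apart from induced replicate 1, all values lay between 9.39 and 9.99. The 2 control conditions were level, with a mean ΔCt of 9.80 ± 0.07 in driver cells and 9.86 ± 0.18 in non-induced cells (SD, n = 2 each), against 7.92 ± 2.07 (SD, n = 2) in induced cells.

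The gap between the 2 induced plates for TGFBR1 was 2.93 cycles of ΔCt, or 7.62-fold. It was the largest of the 79 genes detected on all plates, and the next largest in induced cells was 0.97, for BCL2. The median gap in induced cells was 0.34, and 62 of the 79 genes had higher expression on induced replicate 1. In driver cells the TGFBR1 gap of 0.09 ranked 68 of 79 from the largest, and in non-induced cells the gap of 0.25 ranked 36. Over all 6 plates TGFBR1 had the widest range of ΔCt among the 76 detected genes that were not used for normalization, 3.53 cycles against a median of 0.99.

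**Figure D2:**
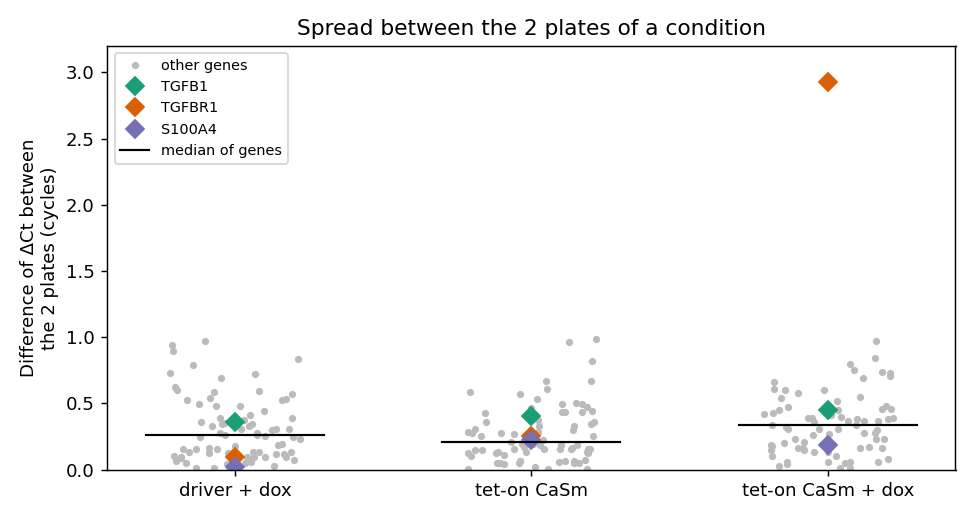
Absolute difference of ΔCt, in cycles, between the 2 plates of each condition, for the 79 genes with a Ct under 35 on all plates. Grey points are other genes, diamonds are TGFB1, TGFBR1 and S100A4, and black lines are medians. TGFBR1 in induced cells, at 2.93, lies far above every other point, of which the highest in that condition is 0.97.

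The log2 fold change of TGFBR1 was 1.88 against driver cells (SE 0.67, 95% interval 0.40 to 3.36, limma adjusted p = 0.0641) and 1.94 against non-induced cells (SE 0.69, 95% interval 0.41 to 3.47, limma adjusted p = 0.0646). These were the highest values of all genes tested in both comparisons. The plates did not overlap in either, beside 54.1% of all genes against driver cells and 61.4% against non-induced cells. Without induced replicate 1 these values were 0.42 (adjusted p = 0.393) and 0.47 (limma adjusted p = 0.302). Without induced replicate 2 they were 3.35 and 3.40. Within run 2, which holds 1 plate of each condition, induced cells differed by 0.37 from driver cells and by 0.35 from non-induced cells. Within run 1, which holds the early well, the difference from non-induced cells was 3.53.

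Against both control conditions together, TGFBR1 was 3.76-fold higher in induced cells (log2 fold change 1.91, SE 0.58, limma adjusted p = 0.033), the only comparison in which it or any of the 4 genes passed the threshold. In that comparison 22.4% of the 85 genes tested had an adjusted p-value under 0.05. The call was lost without induced replicate 1, with a log2 fold change of 0.45 (limma adjusted p = 0.292). It was also lost without non-induced replicate 1 or 2, although the log2 fold change stayed at 1.85 and 1.97. Over 15 alternatives the adjusted p-value was under 0.05 in 8 for this comparison, in 6 against driver cells and in 8 against non-induced cells. In 4, 4 and 5 of these limma gave all genes one common variance, which leaves the spread of TGFBR1 out of its own test. Both induced plates were earlier than all 4 control plates, replicate 2 by 0.35 cycles of ΔCt from the nearest, and for 36.5% of all genes tested the induced plates did not overlap the control plates. Whether the early well reflects the RNA or the reaction was not tested. Non-induced and driver cells did not differ in TGFBR1 beyond the error (log2 fold change −0.06, SE 0.67, 95% interval −1.54 to 1.42), an interval widened by the spread of the induced plates, which enter the same estimate of the variance.

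S100A4 varied little. Its Ct was 22.56 and 22.68 in driver cells, 22.68 and 22.74 in non-induced cells, and 22.64 and 22.90 in induced cells, so that the raw values of the 3 conditions overlapped. The range of 0.34 cycles over all plates was the fourth smallest among the 76 detected genes not used for normalization, for which the median range was 1.18 cycles. As ΔCt, the range of S100A4 was 0.57 cycles and ranked 16 of 76 from the smallest, against a median of 0.99. After normalization the ΔCt was 2.47 and 2.45 in driver cells, 2.34 and 2.56 in non-induced cells, and 2.91 and 2.72 in induced cells. Both induced plates then lay later than all 4 control plates, and induced replicate 1, where the normalizing genes were earliest, had the latest ΔCt of the 6.

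Expressed as a difference, S100A4 stood 1.28-fold below driver cells in induced cells (log2 fold change −0.35, SE 0.24, 95% interval −0.87 to 0.17, limma adjusted p = 0.315). Below non-induced cells the difference was 1.28-fold as well (log2 fold change −0.36, SE 0.23, 95% interval −0.88 to 0.16, limma adjusted p = 0.278). Neither passed the threshold, and the intervals do not extend to a 2.0-fold change in either direction. Against driver cells the log2 fold change was −0.82 with B2M alone (limma adjusted p = 0.0119) and 0.04 with GAPDH alone, so the sign turned with the normalizing gene, and the median of all genes moved with it as given for TGFB1. Non-induced and driver cells were level, with a log2 fold change of 0.01 (SE 0.24, 95% interval −0.51 to 0.53).

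TWIST1 was at the edge of detection in every condition. Its Ct was 40 and 38.03 in driver cells, 38.70 and 36.85 in non-induced cells, and 37.94 and 40 in induced cells. It was the only one of the 89 genes with a Ct above 35 on all 6 plates, and it was left out of the tests for that reason. The values bound its expression only, at a ΔCt of at least 14.66 to 15.27 depending on the plate, and no fold change is given at that limit. The conditions overlapped, and each condition had a gap of more than 1.5 cycles between its own plates. With the limit moved to 40, where 2 of the wells lay, the log2 difference was −0.16 in induced against driver cells (limma adjusted p = 0.893), −1.5 in induced against non-induced cells (adjusted p = 0.318) and 1.34 in non-induced against driver cells (adjusted p = 0.469), each with an SE of 0.94. None passed the threshold, and a change in TWIST1 was not detectable at these levels.

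**Figure D3:**
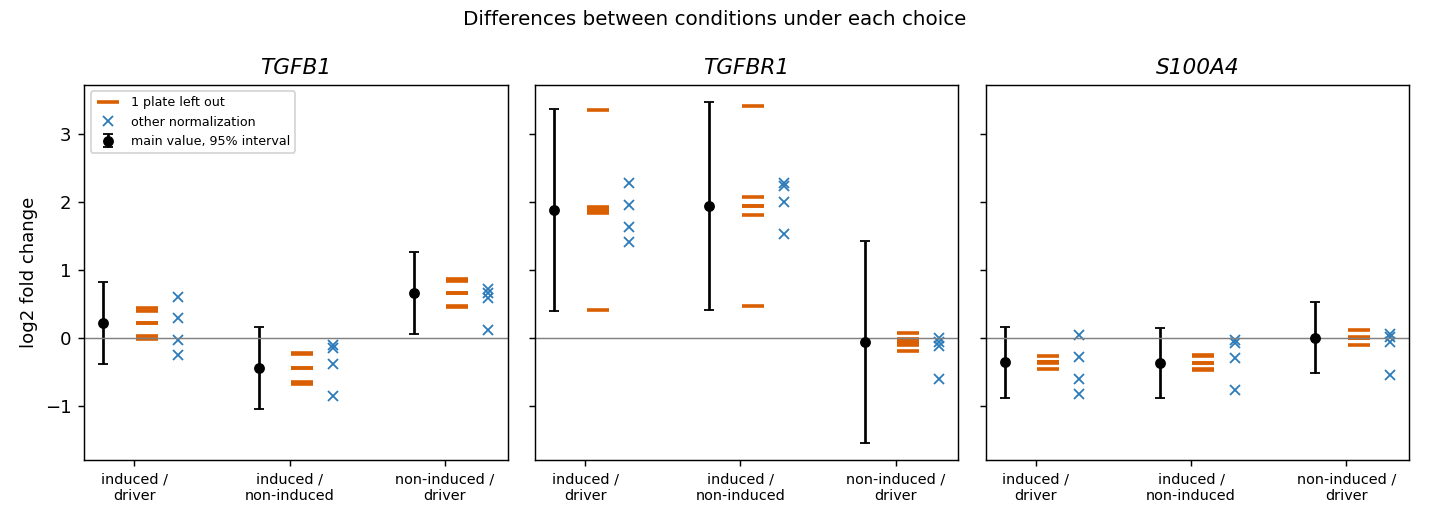
Log2 fold change (y axis) of TGFB1, TGFBR1 and S100A4 in each pair of conditions (x axis). Black points are the reported values with 95% intervals from limma, orange dashes leave out 1 plate each, and blue crosses use B2M, HPRT1 or GAPDH alone or the median of all genes for normalization. TGFBR1 in induced cells ranges from 0.42 to 3.40 with a plate left out, whereas TGFB1 and S100A4 move more with the normalization.

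The array also held 17 other genes with a known place around the TGF-β pathway, grouped here by role. Against driver cells 5 of the 17 passed an adjusted p-value of 0.05 in induced cells, beside 23.5% of all 85 genes tested. Of these 3 were higher and 2 lower, beside 10.6% and 12.9% of all genes. Their median log2 fold change was −0.06, against −0.08 over all genes. Without induced replicate 1, 3 of the 17 passed (THBS1, MYC and CDC25A), beside 19% of all genes. Against non-induced cells 2 of the 17 passed, both lower, beside 24.1% of the 83 genes tested (18.1% lower), and between the 2 control conditions 1 passed, beside 7.06%. Against driver cells the share of the 17 genes was thus close to that of the whole array.

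Among 7 genes that take part in the activation of latent TGF-β, THBS1 and ITGB3 rose against driver cells and the other 5 did not pass the test. THBS1 encodes thrombospondin-1, a matrix protein that can release the ligand from its latent complex. Its ΔCt was 6.62 and 6.57 in driver cells, 4.41 and 4.67 in non-induced cells, and 5.19 and 5.32 in induced cells. All 3 conditions were separate, with the highest expression in non-induced cells. THBS1 was 2.53-fold higher in induced than in driver cells (log2 fold change 1.34, SE 0.24, limma adjusted p = 0.00212) and 4.15-fold higher in non-induced than in driver cells (log2 fold change 2.05, limma adjusted p = 0.000274). The 2 calls passed under each of the 15 alternatives with a test. In induced against non-induced cells THBS1 fell 1.64-fold (limma adjusted p = 0.0492), which passed under 2 of the 15 alternatives and was lost with any 1 plate left out.

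ITGB3 encodes the β3 subunit of the αvβ3 integrin, which can bind the latent complex. Its ΔCt was 7.22 and 7.66 in driver cells, 6.96 and 7.39 in non-induced cells, and 6.0 and 6.60 in induced cells, with both induced plates ahead of all control plates. It rose 2.21-fold against driver cells (log2 fold change 1.14, SE 0.29, limma adjusted p = 0.0199), but the adjusted p-value was 0.0959 without induced replicate 1 and 0.0874 without driver replicate 3. With the run as a block the log2 fold change was 0.66 (adjusted p = 0.291), and within run 2 alone it was 0.62. Against non-induced cells the log2 fold change was 0.88 (adjusted p = 0.0525). ITGAV and ITGB5, which encode integrin subunits of the same group, had log2 fold changes of −0.23 and −0.15 against driver cells. The proteases MMP2 (−0.06), MMP9 (−0.39) and PLAU (0.31) did not pass either.

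None of 4 genes known to be induced by TGF-β passed the test in any comparison. CDKN1A, which encodes the cell cycle inhibitor p21, had a log2 fold change of 0.06 (limma adjusted p = 0.869) in induced against driver cells and 0.20 (adjusted p = 0.588) against non-induced cells. TIMP1, an inhibitor of matrix metalloproteinases, had the largest value of the group, 0.64 (adjusted p = 0.0843) against driver cells and 0.45 (adjusted p = 0.219) against non-induced cells. JUN and PDGFB were between −0.32 and −0.07 in these comparisons.

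The pair of growth genes that TGF-β is known to repress moved in opposite directions. MYC, a transcription factor that promotes growth, had a ΔCt of 6.46 and 6.95 in driver cells, 5.68 and 6.12 in non-induced cells, and 4.85 and 5.56 in induced cells. It rose 2.83-fold against driver cells (log2 fold change 1.5, SE 0.31, limma adjusted p = 0.00488), and had a log2 fold change of 0.70 against non-induced cells (adjusted p = 0.141). The call against driver cells was lost with the run as a block (log2 fold change 0.97, adjusted p = 0.0958) and without moderation of the variance (adjusted p = 0.143), and the value was 0.90 within run 2. CDC25A, a phosphatase that activates cyclin-dependent kinases, had a ΔCt of 7.25 and 7.98 in driver cells, 6.83 and 6.95 in non-induced cells, and 8.27 and 9.0 in induced cells. It fell 3.34-fold against non-induced cells (log2 fold change −1.74, SE 0.32, limma adjusted p = 0.00505) and 2.03-fold against driver cells (adjusted p = 0.0389). The first passed under 13 of 15 alternatives, with an adjusted p-value of 0.0933 without non-induced replicate 1. The second passed under 6, and was lost without driver replicate 2 (log2 fold change −0.65), induced replicate 2 (−0.65) or either non-induced plate (−1.02, adjusted p = 0.082).

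Markers of cell state other than TWIST1 and S100A4 were few on the array. MCAM, an adhesion molecule common on mesenchymal cells, and ITGB1, which encodes the integrin β1 subunit, had log2 fold changes of −0.08 (limma adjusted p = 0.855) and 0.79 (adjusted p = 0.0504) in induced against driver cells. Against non-induced cells they were −0.69 (adjusted p = 0.102) and 0.02 (adjusted p = 0.97). SERPINB5, which encodes the epithelial serpin maspin, had a late mean Ct of 33.1 and fell 1.77-fold against driver cells (limma adjusted p = 0.0428), which passed under 2 of 14 alternatives and was lost with any 1 plate left out. Its log2 fold change against non-induced cells was 0.11. PNN, which encodes the desmosome-associated protein pinin, had log2 fold changes of 0.51 (adjusted p = 0.119) and 0.17 (adjusted p = 0.603) in the same order. CDKN2A, known to be deleted in Panc-1 cells, was about as late as SERPINB5, with a mean Ct of 33.0. Its log2 fold change in induced against driver cells was −0.84 (limma adjusted p = 0.119), beside −0.82 for SERPINB5. Whether the late SERPINB5 signal on the array came from its transcript was not tested here. The paper reports lower SerpinB5 in induced than in driver cells by separate real-time PCR as well.

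**Figure D4:**
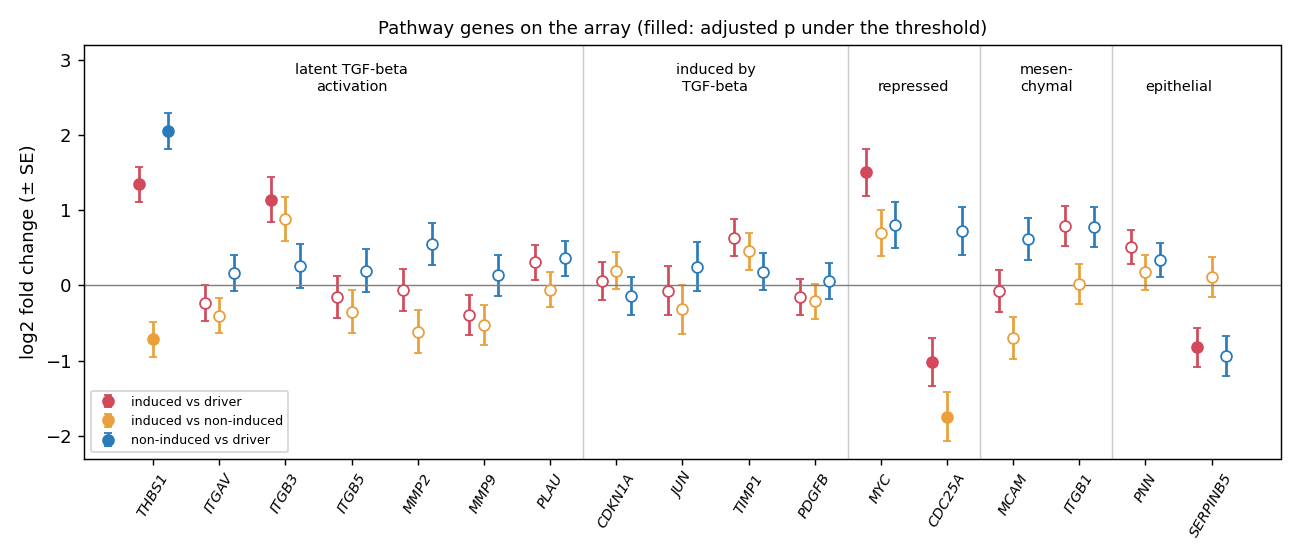
Log2 fold changes (y axis, ± standard error from limma) of 17 genes around the TGF-β pathway (x axis), grouped by role, in 3 comparisons of conditions. Filled points have an adjusted p-value under 0.05. THBS1 differs in all 3 comparisons and in opposite directions, from −0.71 to 2.05, and the 4 genes known to be induced by TGF-β have open points only.

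Profiles over the plates were compared for TGFB1, TGFBR1 and S100A4, since TWIST1 had only bounds. To describe likeness, ΔCt was centred on its mean over the 6 plates for each gene and the root mean square difference between genes was taken, in cycles. TGFB1 was nearest to MMP2 (0.126), MCAM (0.143) and TERT (0.145), against 0.355 for the gene in the middle of the ranking of 75. S100A4 was nearest to CDK4 (0.0937), PDGFB (0.0989) and ITGAV (0.116), genes that also varied little. TGFBR1 had no near neighbour, since ITGB3, the closest, was at 0.836, followed by TNFRSF10B and MYC. Between the members themselves the difference was 0.364 for TGFB1 and S100A4, 1.24 for TGFB1 and TGFBR1, and 1.41 for S100A4 and TGFBR1. All genes of a plate share its cDNA and normalizing genes, which moves them together.

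The array had no keratin or E-cadherin assay by which to check that the cells were epithelial. CDKN2A, a gene known to be deleted in Panc-1 cells, was late but under 35 on all plates, with Ct values from 32.11 to 33.86, and the source of that signal was not tested. GZMA, a marker of cytotoxic lymphocytes, was above 35 on 5 of 6 plates, and TEK, a marker of endothelium, on 4 of 6.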

How the data were processed

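The samples were 6 SYBR Green PCR array plates, 2 per condition. Per the labels the groups follow from the titles, and every column had a sample. The table that the authors deposited holds raw threshold cycles (Ct, in cycles) for 89 genes, read on a Roche Lightcycler; the rule that placed the threshold is not given in the sources used here. Their second table, of fold changes, was not used.

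Ct values above 35 were set to 35, a limit chosen here, and the mean of the 3 normalizing genes named in the methods was subtracted. Those genes were not tested, and neither was a gene whose Ct reached 35 on each plate of a comparison. The model was limma 3.58.1 (R 4.3.3), with −ΔCt as response and 1 mean per condition, leaving 3 residual degrees of freedom (prior degrees of freedom 7.86 against driver cells). P-values were adjusted by Benjamini and Hochberg over all tested genes, with a threshold of 0.05, and the procedure was tested on simulated data. Exact permutation of 2 plates against 2 has a smallest two-sided p-value of 0.333, so none is given. Precision is limited by the number of plates.

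The 4 genes, the pathway lists and the tests were chosen with earlier results of these data known. Genes named are those 4, the lists, the normalizing genes, markers of other cells and the 3 nearest genes of each detected member; BCL2 was added after its values were seen. Alternatives comprised single normalizing genes or the median of all genes, a limit of 40, genes with a mean Ct under 30, the run as a block, unmoderated variances, only the compared plates, linear averaging, single runs and each plate left out in turn. All 4 symbols were found in a RefSeq gene table. Coordinates are omitted, since no genome build is named for the array. Values of 1 gene are not reported here. Figures were drawn with matplotlib 3.10.9 in Python 3.11.15.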

Additional observations from a re-analysis of the deposited data

How the results depend on the processing

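The number of genes with an adjusted p-value under 0.05 was 20 in induced against driver cells. It became 45 with B2M alone, 11 with HPRT1 alone, 10 with a limit of 40, 5 without moderation and 11 with only the plates compared, and ranged from 11 to 17 with 1 plate left out (11 without either non-induced plate). Against non-induced cells 20 became 44, 6, 8 and 4 in the first 4 of these settings, and ranged from 3 to 21 with 1 plate left out, being 3, 10 and 12 without non-induced replicate 1, non-induced replicate 2 and induced replicate 2. Between the controls 6 became 2 with HPRT1, 1 with a limit of 40 and 1 without moderation, and ranged from 1 to 9 (1, 2 and 2 without non-induced replicate 1, non-induced replicate 2 and driver replicate 3). Against both controls 19 became 60 with B2M and 4 without moderation, and ranged from 13 to 25. No cause of these shifts was tested.

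For TGFB1 the log2 fold change against driver cells turned to −0.25 with B2M and −0.03 with the median of all genes and was −0.19 in run 2 alone, ranging from −0.0083 to 0.44 with 1 plate left out. Against non-induced cells it was −0.85 with B2M (adjusted p = 0.0139 from limma) and ranged from −0.67 to −0.22. Between the controls it was 0.27 in run 2 and ranged from 0.46 to 0.86. Against both controls it was −0.55 with B2M (adjusted p = 0.0351) and turned to 0.25 with GAPDH, ranging from −0.34 to 0.11.

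TGFBR1 against driver cells passed the threshold with GAPDH (2.28) and among genes with a mean Ct under 30 (1.88, adjusted p = 0.0384), was 0.37 in run 2 and ranged from 0.42 to 3.35. Against non-induced cells it passed with GAPDH (2.28), the median of all genes (2.24), a mean Ct under 30 (1.94) and only the plates compared (1.94), was 0.35 in run 2 and 3.53 in run 1, and ranged from 0.47 to 3.40. The passes with GAPDH and with only the plates compared came from fits with a common variance for all genes. The spread of TGFBR1 did not enter those tests. Between the controls TGFBR1 ranged from −0.18 to 0.07, the latter without non-induced replicate 1. Against both controls the call was lost with HPRT1 (1.98, adjusted p = 0.0592), and at 1.91 with a limit of 40 (adjusted p = 0.167), without moderation (adjusted p = 0.348) and with only the plates compared (adjusted p = 0.0968). It was 0.36 in run 2 and ranged from 0.45 to 3.38.

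S100A4 with B2M passed against driver cells (−0.82), non-induced cells (−0.77) and both controls (−0.79). With GAPDH it turned to 0.04 against driver cells and 0.0075 (adjusted p = 0.991) against both controls. In induced against non-induced cells it was −0.15 in run 2 and −0.57 in run 1, and against both controls −0.20 in run 2. Between the controls it turned to −0.055 with B2M and −0.54 with the median of all genes. With 1 plate left out it ranged from −0.45 to −0.26 against driver cells, −0.48 to −0.25 against non-induced cells, −0.11 to 0.12 between the controls and −0.45 to −0.26 against both. Of 207 values of these 3 genes under alternatives, 160 were counted as the same. Where a test was made, this means the same direction and side of the threshold. Linear averaging and single runs gave no p-value and were judged on the log2 fold change alone. TWIST1 was at the limit of 35 on all plates, so no other setting gave a value except the limit of 40.

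The titles of both tet-on CaSm conditions carry the same marks, which were numbered here as runs although the labels do not explain them. The deviations of same-numbered plates correlated at −0.17 over 76 genes. That value cannot decide whether the numbers pair the plates, since each condition has only 2 plates and the genes of a plate share its cDNA. The fit reported above did not pair them. With the run as a replicate block, 2 genes were called between the controls, TGFB1 was −0.18 against driver cells, and TGFBR1 passed at 1.17 (adjusted p = 0.0327) against driver cells and 1.94 against non-induced cells. The block fits gave all genes a common variance, so the spread of TGFBR1 did not enter its own test. A crossed block, chosen after seeing the data, gave 10, 19, 2 and 19 calls in the order above.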
